A study of Mus musculus with 4 samples.

Results

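RNA of muscle-derived stem cells (MDSCs) from Oct4 transgenic mice was set directly against RNA of MDSCs from mdx mice, on 2 of the 4 membrane arrays of the study. All 268 genes of the array were taken, the spots of one gene were averaged, and the control spots were left out. Both cultures came from hind limb muscle of male animals and were obtained by preplating, in which cells that attach slowly to the dish are passed on and kept. The Oct4 transgenic animals carry the promoter of OCT4 with a reporter, are labelled as C57BL/6J, and are not described further in the sources used here. The mdx animals carry the mdx mutation in the dystrophin gene, with 10ScSn-Dmdmdx as the genotype label, and model muscular dystrophy. Another label gives C57BL/6J as their background strain, although 10ScSn in the genotype label is part of a strain name. A difference in strain background therefore cannot be told apart from one in genotype. The reporter, the cells in which it is active, and the age of either group of animals are not given in the sources used here, and Dmd is not analysed here, so the values offer no check of the genotypes. The other 2 arrays carried MDSCs of myostatin knockout mice (Mst KO) and of wild-type mice (WT), and they are used only to place the Oct4 transgenic and mdx values.

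MDSCs are a slowly adhering fraction of muscle cells that can be grown for long periods and can enter myogenic and other mesenchymal lineages. Oct 4, encoded by Pou5f1, is a transcription factor that keeps embryonic stem cells undifferentiated, and a reporter under its promoter is used to mark cells in which that promoter is active. Dystrophin links the cytoskeleton of the muscle fiber to the surrounding matrix, and muscle that lacks it goes through repeated degeneration and regeneration, with deposition of connective tissue.

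Of the 288 spots on an array, 274 belonged to the 268 genes and 14 to controls. Raw spot intensity spanned 209 to 58764 for Oct4 transgenic and 178 to 58174 for mdx MDSCs, and the values below are the normalized intensities, which have no unit. A present call, made by the authors' software, was given to 130 of the 268 genes (48.5%) in Oct4 transgenic and to 126 (47.0%) in mdx MDSCs. Present genes began at a normalized intensity of 0.828 in Oct4 transgenic and 0.898 in mdx MDSCs. With 1 array a side the variation between cultures is unknown, no test was run, and every ratio below compares 2 arrays and not 2 genotypes. The only spread that can be seen is between the 3 spots each of Gapdh, B2m and Ppia, where the SD of log2 values on one of these 2 arrays averaged 0.047. These are bright genes, and the spread of dim genes with 1 spot is not known.

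Of the 268 genes, 137 had a present call in this pair of arrays, namely 119 on both, 11 on the Oct4 transgenic array only and 7 on the mdx array only. The other 131 genes were absent on both arrays, with a median normalized intensity of 0.238 in Oct4 transgenic and 0.367 in mdx MDSCs. Among the 137 genes, 14 (10.2%) were at least 2-fold higher in Oct4 transgenic MDSCs and 12 (8.76%) at least 2-fold lower, so that 26 (19%) passed 2-fold either way. The remaining 111 genes (81%) lay within 2-fold. The median log2 ratio of Oct4 transgenic over mdx was 0.15, with quartiles of -0.21 and 0.45, and 87 of the 137 ratios were above 0. Across the 137 genes, which are not independent replicates, the log2 values of the 2 arrays correlated with r = 0.89. The balance between the directions followed the scaling, since 8 genes were higher and 22 lower when both arrays were scaled to 5 housekeeping genes. The RNA is that of a whole culture, so fewer cells of a type and less RNA per cell cannot be told apart.

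**Figure D1:**
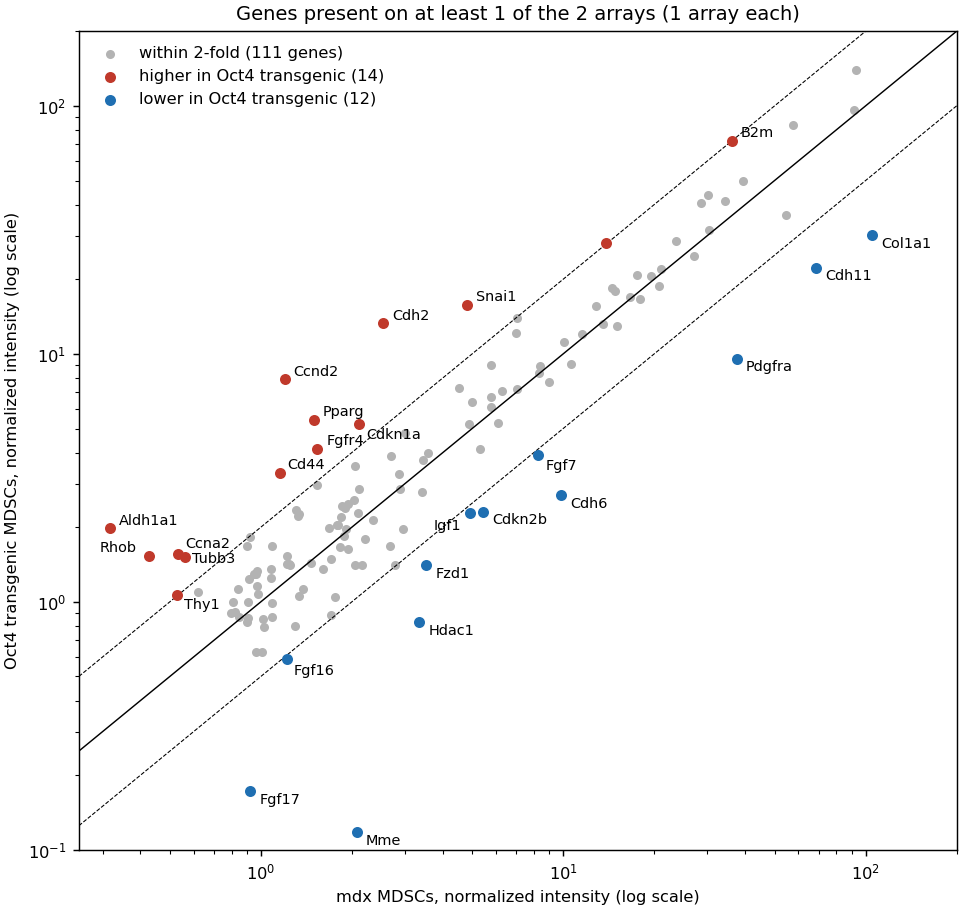
Normalized intensity (no unit, log scales) of the 137 genes with a present call on either array, with Oct4 transgenic MDSCs on the vertical and mdx MDSCs on the horizontal axis, 1 array each. The solid line marks equal values and the dashed lines 2-fold. The 14 higher genes lie on or above the upper dashed line, with B2m and Thy1 close to it, and the 12 lower genes lie below the lower one.

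Among genes present on both arrays, Ccnd2, Cdh2, Pparg and Snai1 had the largest ratios in favor of Oct4 transgenic MDSCs. Ccnd2, the D-type cyclin that drives entry into the cell cycle with Cdk4 and Cdk6, had a normalized intensity of 7.89 in Oct4 transgenic and 1.20 in mdx MDSCs. It was thus 6.58-fold higher (log2 ratio 2.72), and on the other arrays it stood at 1.80 in Mst KO and was absent in WT MDSCs. Cdh2, which encodes N-cadherin, was at 13.3 in Oct4 transgenic and 2.54 in mdx MDSCs (5.21-fold, log2 ratio 2.38). Pparg, the nuclear receptor of adipocyte formation, was at 5.43 in Oct4 transgenic and 1.49 in mdx MDSCs (3.64-fold). Snai1, the zinc finger repressor of E-cadherin that promotes epithelial to mesenchymal transition, was at 15.8 in Oct4 transgenic and 4.81 in mdx MDSCs (3.28-fold, log2 ratio 1.71). For Ccnd2, Pparg and Snai1 the Oct4 transgenic array was the one that stood apart, at 4.37, 3.10 and 3.28 times the next highest of the 4 arrays.

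Among genes present on both arrays, Hdac1, Pdgfra, Cdh6, Col1a1 and Cdh11 had the largest ratios the other way. Pdgfra, the receptor for platelet-derived growth factor that marks mesenchymal progenitors of muscle, was at 9.56 in Oct4 transgenic and 37.5 in mdx MDSCs, 3.93-fold lower (log2 ratio -1.97). Col1a1, a chain of type I collagen, was at 30.1 in Oct4 transgenic and 105 in mdx MDSCs (log2 ratio -1.80). Cdh11, the cadherin of osteoblasts and mesenchymal cells, was at 22.3 in Oct4 transgenic and 68.7 in mdx MDSCs (log2 ratio -1.62). For Pdgfra and Col1a1 the mdx value was 1.90 and 1.91 times the next highest of the 4 arrays, and for Pdgfra the lowest value, that of WT, lay 3.30 times below the next. Hdac1, a histone deacetylase of corepressor complexes, was at 0.828 in Oct4 transgenic and 3.34 in mdx MDSCs (log2 ratio -2.01), and its Oct4 transgenic value was the lowest of any gene called present on that array. Mst KO MDSCs had 4.63 and WT MDSCs 6.10, so the Oct4 transgenic array alone was low for this gene.

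The promoter windows of Snai1 and Pdgfra are shown because these genes had the largest ratio in each direction among genes present on both arrays with a single listed start. Each window is taken from RefSeq (GRCm38.p6) and runs from 250 bases before the start of the gene to 50 bases after it, 5′ to 3′ on the strand of the gene. The window of Snai1 lies at chr2:167537945-167538244 (+ strand) and that of Pdgfra at chr5:75152001-75152300 (+ strand). Capitals mark CAGGTG on either strand, the E-box that proteins of the Snail family bind.
Snai1: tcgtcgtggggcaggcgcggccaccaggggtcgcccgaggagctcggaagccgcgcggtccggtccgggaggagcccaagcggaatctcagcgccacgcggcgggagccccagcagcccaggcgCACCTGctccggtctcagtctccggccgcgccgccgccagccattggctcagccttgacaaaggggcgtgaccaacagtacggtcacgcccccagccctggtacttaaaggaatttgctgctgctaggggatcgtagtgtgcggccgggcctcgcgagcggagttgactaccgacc
Pdgfra: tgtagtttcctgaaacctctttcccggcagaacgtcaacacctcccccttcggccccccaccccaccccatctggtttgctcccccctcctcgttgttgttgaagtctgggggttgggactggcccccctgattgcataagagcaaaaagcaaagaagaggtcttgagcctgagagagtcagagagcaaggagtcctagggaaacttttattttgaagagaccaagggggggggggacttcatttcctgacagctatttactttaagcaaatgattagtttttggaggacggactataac
The window of Snai1 held the motif once, as CACCTG beginning at base 125 of the window, and that of Pdgfra did not hold these letters. Of the 26 genes past 2-fold, 16 had a listed window, and the motif was present for 4 of 9 higher genes (Snai1, Pparg, Cdkn1a and Aldh1a1) and for 0 of 7 lower genes, against 6098 of 27025 genes overall (22.6%). Genes with several starts have several windows, and over windows the share was 5 of 22 (22.7%) for the genes past 2-fold and 6640 of 32851 (20.2%) for all windows of the same length. A match of these letters is a description of the window and not evidence of binding.

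**Figure D2:**
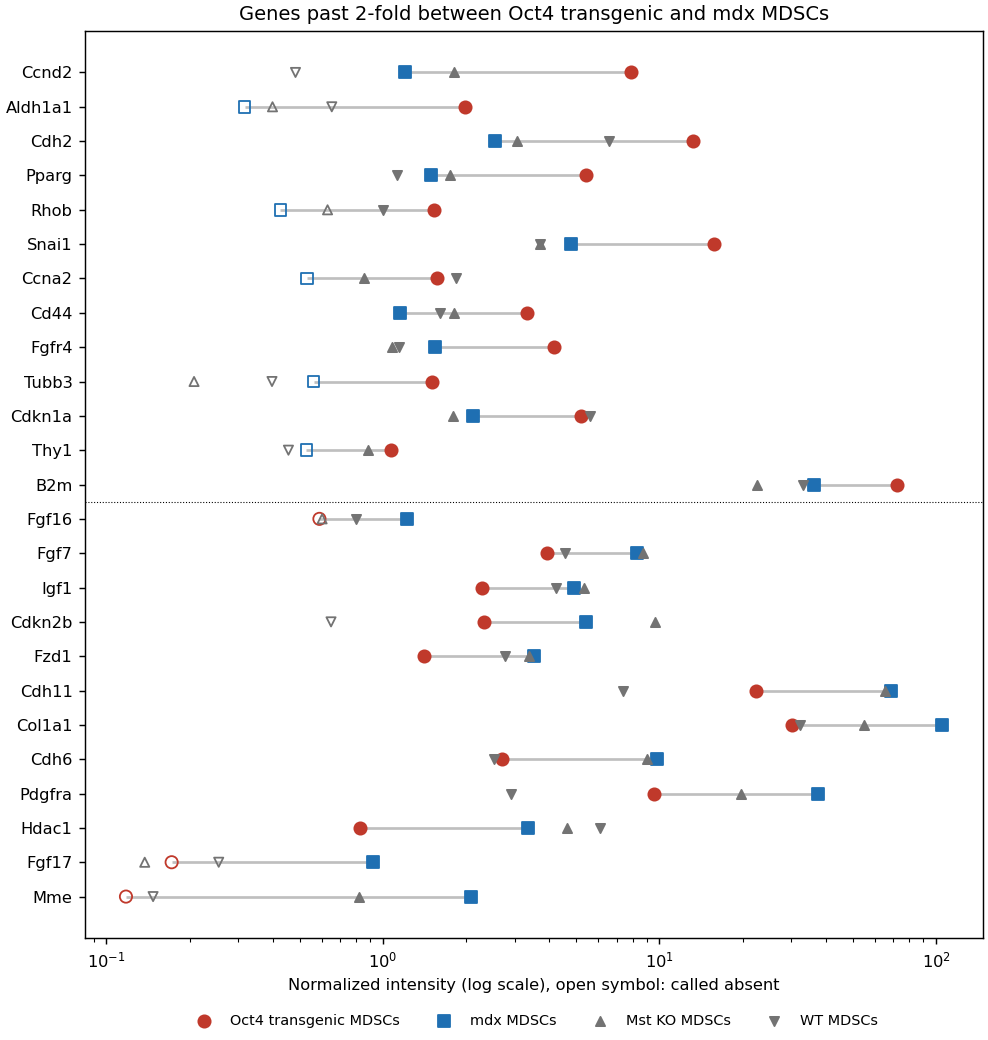
Normalized intensity (no unit, log scale) of the named genes past 2-fold in Oct4 transgenic (circles), mdx (squares), Mst KO (triangles pointing up) and WT MDSCs (triangles pointing down), with open symbols for values called absent and 1 array for each MDSC type. Higher genes stand above the dotted line and lower genes below it, and the Oct4 transgenic value is the highest of the 4 arrays for the higher genes other than Ccna2 and Cdkn1a.

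The 2 other arrays place these values. Among the 14 higher genes, the Oct4 transgenic value was the highest of the 4 arrays for 12, and the exceptions were Ccna2 and Cdkn1a, for which WT was highest. The Mst KO value lay nearer to mdx than to Oct4 transgenic on the log scale for 13 of these 14 genes, and the WT value for 10. Since these genes were picked for a higher value than in mdx, the counts are a description, and among all 87 genes with a ratio above 0 Oct4 transgenic was the highest for 42. Among the 12 lower genes, mdx was the highest for 8 and Oct4 transgenic the lowest for 7, against 24 and 29 of the 50 genes with a ratio below 0. Here the arrays divided, with WT nearer to Oct4 transgenic for 9 of 12 genes and Mst KO nearer to mdx for 9 of 12. Nearness was not counted over the other genes, so the counts of nearness have no background to be set against. Cdh11, Cdh6 and Fgf7 were among the genes with both, at 65.6, 9.02 and 8.74 in Mst KO MDSCs and 7.39, 2.52 and 4.56 in WT MDSCs. For Pdgfra the Mst KO value of 19.7 lay about midway between Oct4 transgenic (9.56) and mdx (37.5), and WT was at 2.90.

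Among the cyclins and their kinases, Ccnd2 and Ccna2 passed 2-fold. Ccna2, the cyclin of S phase and mitosis, was at 1.56 in Oct4 transgenic MDSCs and absent at 0.532 in mdx MDSCs, which is at least 1.74-fold higher once the absent value is set to the dimmest present level of the mdx array. Ccnd1, another D-type cyclin, was at 1.83 in Oct4 transgenic and 0.921 in mdx MDSCs (log2 ratio 0.99) and fell just short of 2-fold. Cdk2, the kinase partner of cyclins E and A, was at 1.41 in Oct4 transgenic and 2.78 in mdx MDSCs (log2 ratio -0.98). Of 10 cyclins and cyclin-dependent kinases, 8 were present on at least 1 array, 2 were higher and 0 lower, against 10.2% and 8.76% of all genes. With 5 housekeeping genes Cdk2 (-1.41) and Cdk4 (-1.03) passed 2-fold lower, which made 2 higher and 2 lower. The median log2 ratio was 0.30, against 0.15 for all 137 genes, and it turned to -0.14 with 5 housekeeping genes. Ccnd3, the D-type cyclin of differentiating muscle, was at 7.73 in Oct4 transgenic and 8.96 in mdx MDSCs, so the 3 D-type cyclins had log2 ratios of 2.72 (Ccnd2), 0.99 (Ccnd1) and -0.21 (Ccnd3). Cdk4, the kinase that D-type cyclins activate, was at 36.2 in Oct4 transgenic and 54.7 in mdx MDSCs (log2 ratio -0.59).

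Among the inhibitors of the cell cycle, Cdkn1a was higher and Cdkn2b lower. Cdkn1a, which encodes p21, was at 5.21 in Oct4 transgenic and 2.11 in mdx MDSCs (2.46-fold, log2 ratio 1.30). Cdkn2b, which encodes the Cdk4 inhibitor p15, was at 2.31 in Oct4 transgenic and 5.44 in mdx MDSCs (log2 ratio -1.23), and stood at 9.64 in Mst KO MDSCs and was absent in WT MDSCs. Its neighbour Cdkn2a, which encodes p16 and p19Arf, was at 2.19 in Oct4 transgenic and 1.84 in mdx MDSCs. Trp53, the transcription factor that induces p21, was at 2.86 in Oct4 transgenic and 2.90 in mdx MDSCs, and the retinoblastoma gene Rb1 was at 2.21 in Oct4 transgenic and 1.32 in mdx MDSCs. All 5 genes of this group were present, with 1 higher and 1 lower, against 10.2% and 8.76% of all 137 genes. With 5 housekeeping genes the log2 ratio of Cdkn1a was 0.86, within 2-fold, which left 0 higher and 1 lower. The median log2 ratio was 0.25, or -0.18 with 5 housekeeping genes.

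The cadherins gave some of the largest ratios in both directions. N-cadherin stood 5.21-fold higher in Oct4 transgenic MDSCs, whereas Cdh11 and Cdh6 were lower there. Cdh6, known as kidney cadherin, was at 2.69 in Oct4 transgenic and 9.83 in mdx MDSCs (log2 ratio -1.87). E-cadherin (Cdh1), the epithelial member, was absent on both arrays. Cdh15, the M-cadherin of satellite cells and myoblasts, was at 1.06 in Oct4 transgenic and 1.34 in mdx MDSCs (log2 ratio -0.34). Cdh13, a cadherin anchored to the membrane by a lipid, was at 1.09 in Oct4 transgenic MDSCs and absent at 0.622 in mdx MDSCs. The catenins that bind cadherins lay within 2-fold. Ctnnb1 was at 40.7 in Oct4 transgenic and 28.6 in mdx MDSCs (log2 ratio 0.51, or 0.07 with 5 housekeeping genes). Ctnna1 was at 28.6 in Oct4 transgenic and 23.5 in mdx MDSCs (log2 ratio 0.28, or -0.16 with 5 housekeeping genes). Cd44, the hyaluronan receptor that the study used as an MDSC marker, was at 3.31 in Oct4 transgenic and 1.15 in mdx MDSCs (2.86-fold). Of 16 genes of cadherins, catenins and other adhesion molecules, 9 were present. Of these, 2 were higher and 2 lower, against 10.2% and 8.76% of all 137 genes. The median log2 ratio was 0.28, or -0.16 with 5 housekeeping genes.

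Among growth factors and their receptors, Pdgfra, Igf1 and Fgf7 were lower with a present call on both arrays. Of 31 factors and receptors of the FGF and PDGF families and others, 13 were present on at least 1 array, and 1 was higher and 5 lower, against 10.2% higher and 8.76% lower over all 137 genes. Among the 9 present on both arrays, 1 was higher and 3 lower. The median log2 ratio was -0.29, but -0.04 for genes present on both arrays, -0.16 with raised absent values and -0.73 with 5 housekeeping genes. Fgf7, the keratinocyte growth factor made by mesenchymal cells, was at 3.91 in Oct4 transgenic and 8.28 in mdx MDSCs (log2 ratio -1.08). Igf1, which promotes muscle growth, was at 2.27 in Oct4 transgenic and 4.91 in mdx MDSCs (log2 ratio -1.11). Fgf17 and Fgf16, a pair of secreted fibroblast growth factors, were absent in Oct4 transgenic MDSCs, at 0.172 and 0.590, and present at 0.922 and 1.22 in mdx MDSCs. Once the absent values are set to the dimmest present level, mdx MDSCs were at least 1.11-fold and 1.47-fold above Oct4 transgenic MDSCs for these genes, so their places past 2-fold rest on values called absent.

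The one higher member of this group, as deposited, was a receptor. Fgfr4, the fibroblast growth factor receptor found in myoblasts of regenerating muscle, was at 4.14 in Oct4 transgenic and 1.54 in mdx MDSCs (2.69-fold, log2 ratio 1.43), and stood at 1.08 on the Mst KO and 1.15 on the WT array. With 5 housekeeping genes the log2 ratio of Fgfr4 was 0.99, just short of 2-fold, which left 0 higher and 5 lower members. The other 3 receptors of this family, Fgfr1 to Fgfr3, were absent on both arrays. Pdgfa, a ligand of the receptor encoded by Pdgfra, was at 14.0 in Oct4 transgenic and 7.05 in mdx MDSCs (log2 ratio 0.99). Its ratio ran opposite to that of its receptor, which was -1.97 on the log2 scale. Pdgfb, the other platelet-derived growth factor chain measured, was at 13.2 in Oct4 transgenic and 13.5 in mdx MDSCs.

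The markers of fibroblasts and mesenchymal cells were all present, and their summed normalized intensity was 69.4 in Oct4 transgenic and 217 in mdx MDSCs. Of this list of 5, 3 were lower (Pdgfra, Col1a1 and Cdh11) and 1 higher (Thy1), against 8.76% and 10.2% of all 137 genes. The median log2 ratio was -1.62. The sums came mostly from the 3 lower genes, at 9.56, 30.1 and 22.3 in Oct4 transgenic and 37.5, 105 and 68.7 in mdx MDSCs. Thy1, a surface protein of fibroblasts and many other cells, was at 1.07 in Oct4 transgenic MDSCs and absent at 0.529 in mdx MDSCs (higher by at least 1.19-fold). Cxcl12, a chemokine of stromal cells, was at 6.38 in Oct4 transgenic and 5.01 in mdx MDSCs (log2 ratio 0.35). The 5 markers of myoblasts were present and within 2-fold as deposited, against 81% of all 137 genes, and Myod1 was past 2-fold lower with 5 housekeeping genes. The myoblast markers summed to 12.3 in Oct4 transgenic and 12.6 in mdx MDSCs. Of the immune cell markers, 8 of 11 were absent on both arrays, among them the pan-leukocyte marker Ptprc at 0.0804 in Oct4 transgenic and 0.440 in mdx MDSCs, and the list summed to 4.62 in Oct4 transgenic and 8.71 in mdx MDSCs. The 8 absent genes gave 1.34 of this sum in Oct4 transgenic and 3.10 in mdx MDSCs, and Mme gave 0.118 in Oct4 transgenic and 2.08 in mdx MDSCs, while the 2 genes present on both arrays summed to 3.16 in Oct4 transgenic and 3.52 in mdx MDSCs. All 4 endothelial markers (Cdh5, Kdr, Flt1 and Gja5) were absent on both arrays, with sums of 0.858 in Oct4 transgenic and 1.15 in mdx MDSCs. Whether the makeup of the cultures had a part in the lower genes was not tested.

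The genes of bone, cartilage and matrix did not move as a block. Col1a1 was lower and Cd44 higher, and Spp1, the secreted matrix protein osteopontin, was at 12.2 in Oct4 transgenic and 6.98 in mdx MDSCs (log2 ratio 0.80). Only these 3 of 7 genes in the list were present, and the cartilage collagens Col2a1 and Col9a1 were absent on both arrays. Col10a1, the collagen of hypertrophic cartilage, was not in this list and was at 1.41 in Oct4 transgenic and 2.17 in mdx MDSCs (log2 ratio -0.62).

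Mme was called present in mdx but not in Oct4 transgenic MDSCs. It encodes neprilysin, a membrane peptidase found on lymphoid progenitors and on stromal cells, and was absent at 0.118 in Oct4 transgenic MDSCs and present at 2.08 in mdx MDSCs. The log2 ratio of the deposited values was -4.14, and with the absent value raised mdx MDSCs were at least 2.51-fold higher. It was at 0.818 in Mst KO and absent at 0.148 in WT MDSCs. The immune list it belongs to had 2 other present genes, Cd3e and Cd8a of T cells, with log2 ratios of -0.19 and -0.13.

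Several higher genes were present in Oct4 transgenic MDSCs and absent in mdx MDSCs. Aldh1a1, a retinaldehyde dehydrogenase whose activity is used to isolate stem cells, was at 1.98 in Oct4 transgenic MDSCs and absent at 0.316 in mdx MDSCs (higher by at least 2.21-fold). It was absent on the Mst KO and WT arrays too, so Oct4 transgenic MDSCs alone had a present call. Rhob, a small GTPase of endosomes, was at 1.53 in Oct4 transgenic and absent at 0.426 in mdx MDSCs (higher by at least 1.71-fold). Tubb3, the beta tubulin of neurons, was at 1.51 in Oct4 transgenic and absent at 0.562 in mdx MDSCs (higher by at least 1.68-fold), and was absent in Mst KO and WT MDSCs. Of the 14 higher genes, 5 had a present call in Oct4 transgenic MDSCs only, and of the 12 lower genes 3 had one in mdx MDSCs only. A present call is no sharp limit, since values as high as 1.82 in Oct4 transgenic and 1.37 in mdx MDSCs were called absent.

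Other genes linked to side population cells and to lineage differed less as deposited. Abcg2, the transporter that exports the dye used to sort side population cells, was at 7.25 in Oct4 transgenic and 4.54 in mdx MDSCs (log2 ratio 0.68). Aldh2, the mitochondrial aldehyde dehydrogenase, was absent at 0.625 in Oct4 transgenic MDSCs and present at 0.962 in mdx MDSCs, the opposite direction to Aldh1a1. Its log2 ratio was -0.62, and it passed 2-fold lower with 5 housekeeping genes (-1.06). Among the adipose, liver and epithelial genes, Pparg and its relative Ppard were the only ones of 8 with a present call, and Ppard was at 1.25 in Oct4 transgenic and 1.08 in mdx MDSCs. Of 8 neural genes 4 were present, and of these Tubb3 was past 2-fold, against 19% of all 137 genes. With 5 housekeeping genes, and with raised absent values, 0 were past 2-fold. The median log2 ratio was 0.43, or -0.003 with 5 housekeeping genes. Sox3, a transcription factor of neural progenitors, was at 49.9992 in Oct4 transgenic and 39.4 in mdx MDSCs (log2 ratio 0.34).

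**Figure D3:**
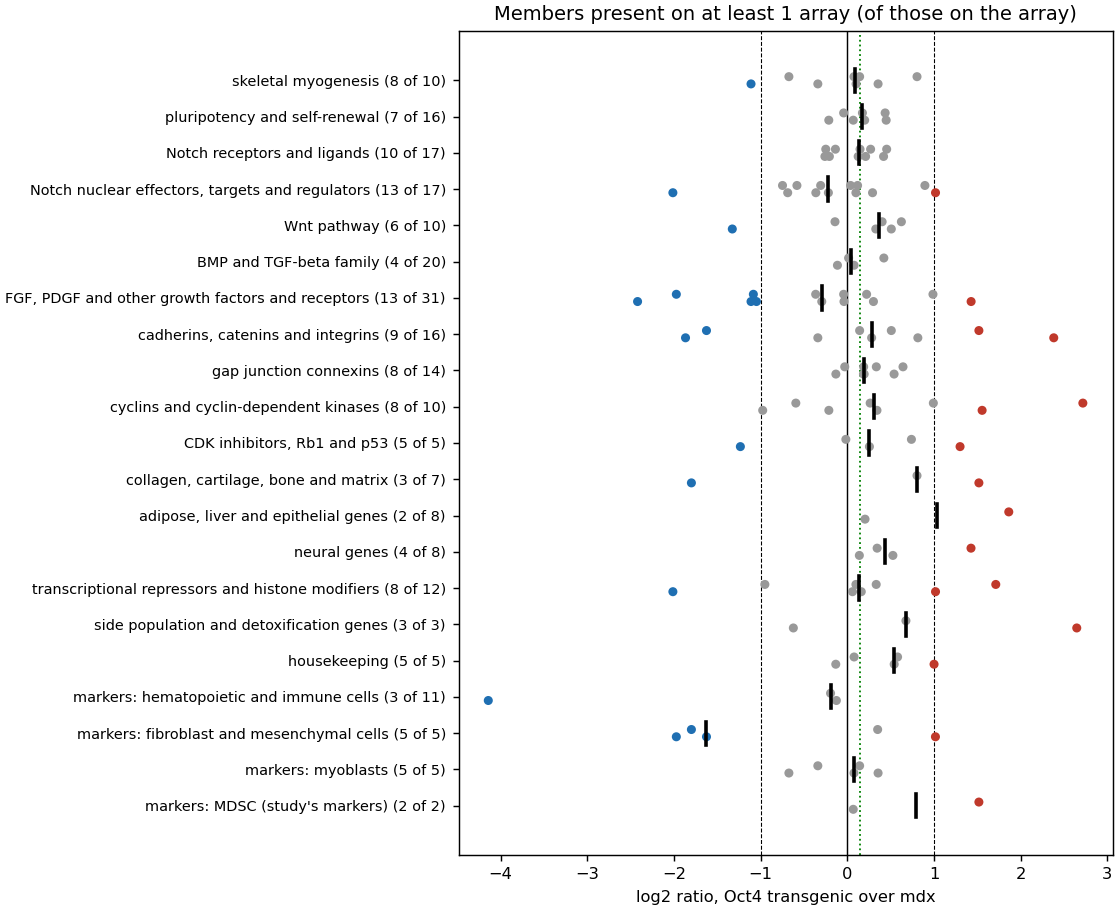
Log2 ratios of Oct4 transgenic over mdx MDSCs for the members of each gene list with a present call on either array (1 array each), with the list median as a black bar and the median of all 137 genes (0.15) as a dotted line. Red marks genes at least 2-fold higher, blue genes at least 2-fold lower, and dashed lines 2-fold. The mesenchymal markers have a median of -1.62, and the growth factor list holds 5 lower genes, of which 3 were present on both arrays.

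Pou5f1 had a normalized intensity of 12.1 in Oct4 transgenic and 11.5 in mdx MDSCs, a log2 ratio of 0.07 that was -0.37 with 5 housekeeping genes. Of 16 genes of pluripotency and self-renewal, 7 were present, all within 2-fold, against 81% of all 137 genes. The median log2 ratio was 0.17, or -0.26 with 5 housekeeping genes. Myc, which drives growth and division, was at 12.9 in Oct4 transgenic and 15.02 in mdx MDSCs (log2 ratio -0.21). Lif, the cytokine that holds mouse embryonic stem cells in an undifferentiated state, was at 1.23 in Oct4 transgenic and 0.912 in mdx MDSCs. Utf1, a chromatin protein of undifferentiated cells, was at 1.30 in Oct4 transgenic and 0.952 in mdx MDSCs. The core factors Nanog and Sox2 were absent on both arrays, with 0.0634 and 0.636 in Oct4 transgenic and 0.127 and 0.425 in mdx MDSCs.

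The markers of muscle commitment lay within 2-fold as deposited. Myod1, the factor that commits cells to the muscle lineage, was at 1.68 in Oct4 transgenic and 2.68 in mdx MDSCs (log2 ratio -0.67), and it passed 2-fold lower with 5 housekeeping genes (-1.11) and with Gapdh alone (-1.25). Actc1, the cardiac actin that embryonic and regenerating skeletal muscle also makes, was at 5.23 in Oct4 transgenic and 4.87 in mdx MDSCs. Both genes stood higher in WT MDSCs, at 17.5 and 39.9. Myf5, the factor of early myoblasts, was at 2.48 in Oct4 transgenic and 1.94 in mdx MDSCs. Des, the intermediate filament desmin, was at 6.09 in Oct4 transgenic and 5.77 in mdx MDSCs. Of 10 genes in the list, 8 were present. Of these, 0 were higher and 1 was lower, which was Igf1, against 10.2% and 8.76% of all 137 genes. The median log2 ratio of 0.09 was -0.35 with 5 housekeeping genes.

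Notch signaling, in which a receptor cleaved at the membrane releases a domain that switches on target genes in the nucleus, is covered by a pair of gene lists. Of 17 receptors, ligands and processing enzymes, 10 were present and all lay within 2-fold, against 81% of all 137 genes. Among them was the ligand Dll3 with a log2 ratio of -0.26. Of 17 nuclear effectors, targets and regulators, 13 were present, 1 was higher and 1 lower, with a median of -0.22, against 19% of all genes past 2-fold either way. The lower one was Hdac1. With 5 housekeeping genes 0 were higher and 4 lower, namely Hdac1, Snw1 (-1.13), Ctbp1 (-1.02) and Ctbp2 (-1.19), and the median was -0.66. Ctbp1 and Ctbp2, transcriptional corepressors, were at 1.97 and 1.05 in Oct4 transgenic and at 2.94 and 1.76 in mdx MDSCs. Hes1, the repressor that Notch induces, was at 1.68 in Oct4 transgenic and 0.902 in mdx MDSCs (log2 ratio 0.90), whereas Hes5, a related target, was at 3.73 in Oct4 transgenic and 3.44 in mdx MDSCs. Hdac2, the close relative of Hdac1, did not share its difference, with 8.95 in Oct4 transgenic and 8.36 in mdx MDSCs (log2 ratio 0.10).

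Of 10 genes in the Wnt pathway list, 6 were present and 1 passed 2-fold, against 19% of all 137 genes. One of the present genes was Adar, an RNA-editing enzyme that is not a Wnt pathway component (log2 ratio -0.14). Fzd1, a receptor for Wnt proteins, was at 1.41 in Oct4 transgenic and 3.53 in mdx MDSCs (log2 ratio -1.33), and Mst KO and WT MDSCs lay near mdx, at 3.39 and 2.76. Apc, part of the complex that marks beta-catenin for degradation, was at 1.68 in Oct4 transgenic and 1.09 in mdx MDSCs (log2 ratio 0.62). The median of the 6 genes, Adar included, was 0.36 on the log2 scale, and -0.07 with 5 housekeeping genes. Of 20 genes of the BMP and TGF-beta family only 4 were present, all within 2-fold, against 81% of all 137 genes. Among them was the receptor Bmpr2 with 20.5 in Oct4 transgenic and 19.5 in mdx MDSCs. The hedgehog ligands Shh, Ihh and Dhh were absent on both arrays.

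Among transcriptional repressors and histone modifiers, 8 of 12 were present. Of these, 2 were higher, Snai1 among them, and 1 lower, which was Hdac1, against 10.2% and 8.76% of all 137 genes. Snai2, which encodes Slug and is the relative of Snai1, was at 31.7 in Oct4 transgenic and 30.4 in mdx MDSCs (log2 ratio 0.06), so the difference in Snai1 was not shared by it. Myst1, an acetyltransferase of histone H4 now named Kat8, was at 0.881 in Oct4 transgenic and 1.70 in mdx MDSCs (log2 ratio -0.95). The median of the list was 0.13, and -0.31 with 5 housekeeping genes. Under that scaling Myst1 (-1.39) passed 2-fold lower too, and the list had 1 higher and 2 lower. Of 14 gap junction connexins, which form channels between cells, 8 were present and all lay within 2-fold, against 81% of all 137 genes. Gja4, which encodes a gap junction protein of blood vessels, was at 83.9 in Oct4 transgenic and 57.7 in mdx MDSCs (log2 ratio 0.54), and Gja1, which encodes the most widespread connexin, at 9.01 in Oct4 transgenic and 5.77 in mdx MDSCs (log2 ratio 0.64). The ratios of Gja4 and Gja1 became 0.10 and 0.20 with 5 housekeeping genes.

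The 5 housekeeping genes were all present, and B2m alone was at 2-fold as deposited, though within 2-fold under the other scalings. B2m, the light chain of class I antigen-presenting molecules, was at 72.2 ± 4.10 in Oct4 transgenic and 36.1 ± 1.67 in mdx MDSCs (SD over 3 spots), a log2 ratio of 1.001 that lay just past 2-fold. Over pairs of spots it ran from 0.84 to 1.13, so spots alone place it on either side of the threshold. Gapdh, a glycolytic enzyme, was at 139 ± 3.87 in Oct4 transgenic and 93.2 ± 1.99 in mdx MDSCs (SD over 3 spots, log2 ratio 0.58), and Hsp90ab1, a heat shock protein, at 43.8 in Oct4 transgenic and 30.1 in mdx MDSCs. Ppia, which encodes cyclophilin A, was at 96.5 in Oct4 transgenic and 91.5 in mdx MDSCs (log2 ratio 0.08), and Rps27a, a ribosomal protein made as a fusion with ubiquitin, at 24.7 in Oct4 transgenic and 27.1 in mdx MDSCs (log2 ratio -0.13). The median of the 5 was 0.54 on the log2 scale against 0.15 for all 137 genes, and -0.04 with Gapdh alone. Scaling to these 5 genes therefore lowered every ratio by 0.44 on the log2 scale, and scaling to Gapdh alone lowered it by 0.58.

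With the 5 housekeeping genes as the scale, 8 of the 14 higher genes stayed past 2-fold and all 12 lower genes did, beside 10 further lower genes. That scaling lowered every ratio, so the 12 lower genes had to stay past 2-fold. Over all alternatives of scaling, background and treatment of absent values that gave a ratio, 15 of the 26 genes stayed past 2-fold and none changed sign. They were Ccnd2, Aldh1a1, Cdh2, Pparg and Snai1 among the higher genes, and all lower genes except Fgf16 and Fgf17. The other scalings and backgrounds also moved the median ratio down. The tally therefore favored lower genes and does not show which direction is firmer. B2m, at 1.001, lay closest to the threshold and was within 2-fold under 6 alternatives.

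**Figure D4:**
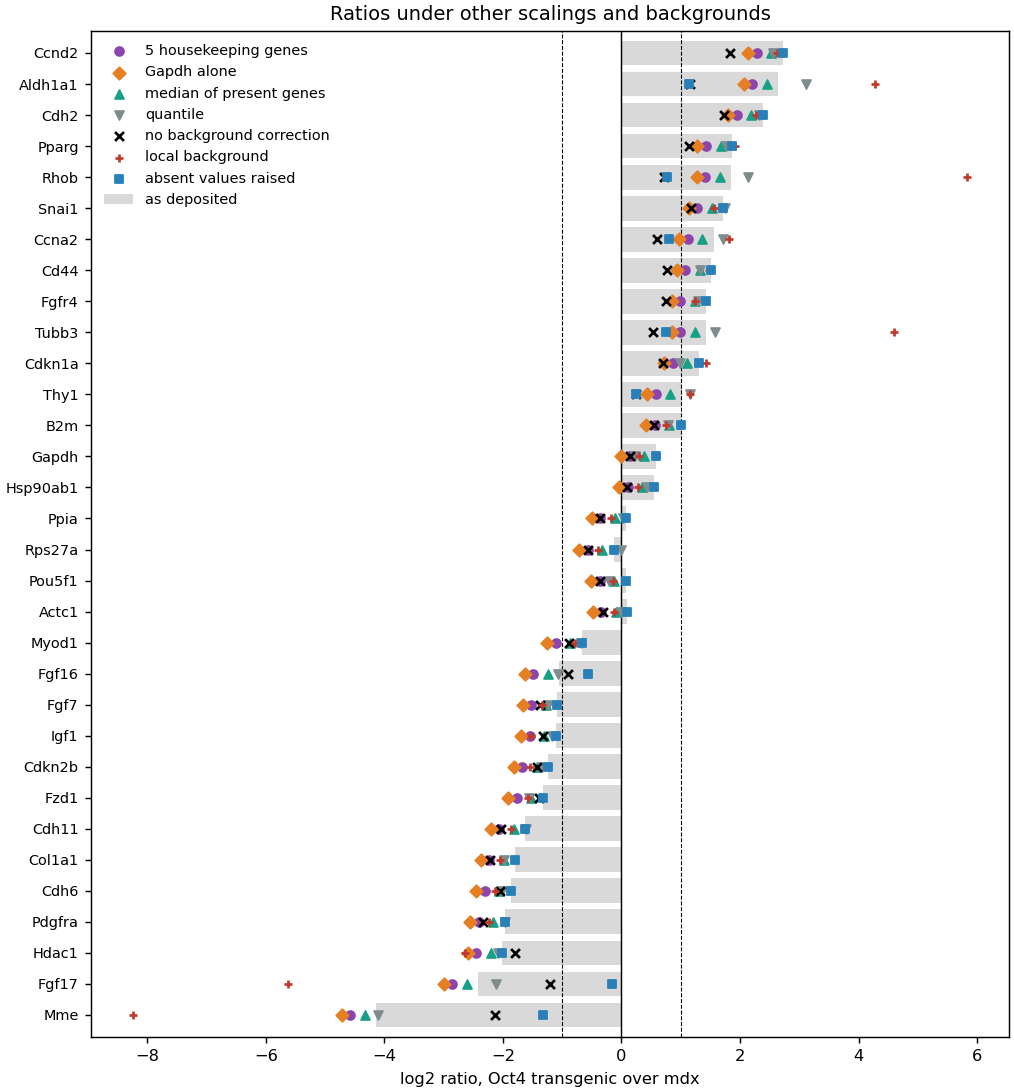
Log2 ratio of Oct4 transgenic over mdx MDSCs (horizontal axis) for the named genes past 2-fold and 7 others, with grey bars for the values as deposited and symbols for other scalings and backgrounds, 1 array each. Dashed lines mark 2-fold. The lower genes stay left of 0 and the higher genes right of it, and the points at 4.28 (Aldh1a1), 5.83 (Rhob) and -8.24 (Mme) come from the local background.

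The genes past 2-fold were also counted by their place on the membrane. Rows 17 to 24 held 7 higher genes and 1 lower among 49 genes with a ratio. Rows 9 to 16 held 1 higher and 7 lower among 38, and rows 1 to 8 held 6 and 4 among 50. The median log2 ratios of these 3 parts of the membrane were 0.20 (rows 17 to 24), 0.11 (rows 9 to 16) and 0.14 (rows 1 to 8). Columns 7 to 12 held 10 higher and 5 lower among 59 genes, and columns 1 to 6 held 4 and 7 among 78. The genes stand in an order close to that of their names, so members of a family are neighbours, and the part of position in these ratios was not tested. By level, there were 6 higher and 4 lower among 62 genes with a geometric mean under 2, 6 and 5 among 46 genes from 2 to 10, and 2 and 3 among 29 genes at 10 or more.

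**Figure D5:**
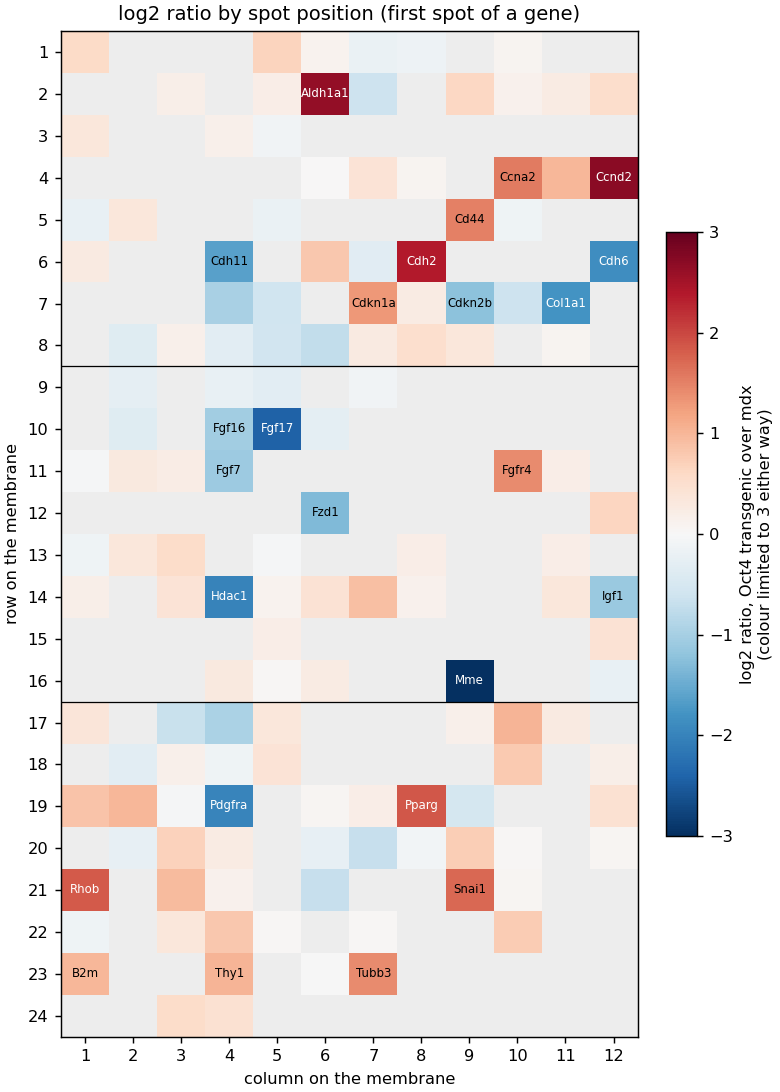
Log2 ratio of Oct4 transgenic over mdx MDSCs at the place of each gene on the membrane (24 rows, 12 columns), red for higher and blue for lower, grey for genes absent on both arrays and for controls, with genes past 2-fold named. Of the 12 lower genes, 7 lie in rows 9 to 16, which hold 38 of the 137 genes. Of the 14 higher genes, 7 lie in rows 17 to 24, which hold 49.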

How the data were processed

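RNA of MDSCs from Oct4 transgenic and mdx mice was measured on 1 membrane oligonucleotide array for each MDSC type, beside 1 array each of Mst KO and WT MDSCs. The study describes RNA pooled from several flasks of each MDSC type, biotin-labeled cDNA and chemiluminescent detection, whereas the sample records describe labeled cRNA. The labels describe cells grown in DMEM with 20% serum until nearly confluent and purification of RNA with Trizol and RNeasy.

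The values used are the normalized intensity of each spot as deposited by the authors, with the raw intensity and the local background of each spot beside them, and the intensity values of the series table are the same values rounded. The authors' software, whose version is not given in the sources used here, took the lowest spot of an array as background and called spots absent or present with a threshold of 1.5, per the file headers. The study names housekeeping genes for normalization, but on both arrays the deposited intensity could be rebuilt by subtracting the dimmest spot and dividing by a factor, 297 for Oct4 transgenic and 309 for mdx. The factor was the average over the 144 spots in the middle of the ranked, subtracted values. That factor is 1 number for each array, so it leaves the order of genes within an array as it was and sets the balance of higher and lower genes between arrays. No ratio or other comparison deposited by the authors was used.

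Spots of one gene were averaged, and the 14 control spots were left out. A log2 ratio of Oct4 transgenic over mdx was computed wherever either of the 2 arrays had a present call, and counted at 2-fold or more. For a gene absent on 1 array, the fold named as at least N-fold set the absent value to the dimmest present level of that array unless it already exceeded it. With 1 array a side there is no test and no p value, and precision is limited by the number of arrays. The genes named in the text are those past 2-fold except 1 that is not reported here, the 5 housekeeping genes, Pou5f1, and present members of the gene lists. Col10a1, Ptprc, Nanog, Sox2, the endothelial markers, and other absent genes were named after their values were seen. The genes, the 18 gene lists, the 5 lists of cell type markers and the threshold were chosen with earlier results of these data known.

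Gene symbols are those of the array, and the accessions of 257 genes had a match in RefSeq (GRCm38.p6), which gave 14 of them a newer symbol. Near-identical genes could share signal on the membrane, and the probe sequences are not used here. Alternatives were scaling to 5 housekeeping genes, to Gapdh alone, or to the median of genes present on all 4 arrays, quantile normalization, no background correction, a local background, raised absent values, no filter on absent genes, only genes present on both arrays, thresholds of 1.5-fold and 3-fold, the rounded series table, and removal of bleeding spots (0 on these arrays). The calculation was tested on simulated data. Mstn, Pax3, Pax7, Acta1, Ly6a and Cd34 are not analysed here. Software was Python 3.11.15, with pandas 2.3.3, numpy 2.4.6 and matplotlib 3.10.9.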

Additional observations from a re-analysis of the deposited data

How the results depend on the processing

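The values as deposited gave 14 higher and 12 lower genes in Oct4 transgenic against mdx MDSCs, and 12 of 14 gene lists had a median above 0. Scaling to 5 housekeeping genes gave 8 higher and 22 lower genes with 1 list median above 0, and Gapdh alone gave 6 and 23 with 0 list medians above 0. With the median of genes present on all 4 arrays 6 list medians were above 0, with quantile normalization 7, and with a local background 5, while the counts of genes moved little (11 and 14, 12 and 14, and 14 and 13). No background correction, which was scaled to 5 housekeeping genes as well, gave 5 higher genes and 1 list median above 0. These alternatives moved the median log2 ratio of all genes by -0.44 (5 housekeeping genes), -0.58 (Gapdh), -0.19 (median), -0.15 (quantile), -0.39 (no background correction) and -0.19 (local background). Without a filter on absent genes 17 genes were higher and 50 lower, of 266 with a ratio, and restriction to the 119 genes with 2 present calls left 9 higher and 9 lower genes. At 1.5-fold the counts were 28 and 21, and at 3-fold 6 and 7, as a lower or higher threshold must give. Raised absent values left 10 and 10, and the rounded series table and the bleeding filter gave 14 and 12.

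The local background gave no ratio for 2 of the 137 genes. No paired analysis was possible because each MDSC type has 1 array. No array could be left out, since a ratio needs both. The direction of 11 list medians turned with 5 housekeeping genes, so the direction of those lists depends on the scaling. Dim genes, whose values lie near those called absent, have ratios that depend on the background, and Mme ran from -8.24 to -1.33 on the log2 scale over the alternatives. With 1 array for each MDSC type, these alternatives show how the ratios follow the processing and not how they would vary between cultures.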
